A study of Mus musculus with 6 samples.

Results

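Adgrl2, the gene of latrophilin 2, and 7 other genes of adhesion G protein-coupled receptors (Adgrl1, Adgrl3, Adgrl4, Adgre5, Adgrg1, Adgrg3 and Adgrg6) were followed in a mouse B-cell line with and without added FOG1. All probe sets that the platform's annotation gives 1 symbol, that of one of these genes, were taken. They were 15 of 34760 probe sets and stood for 8 of the 9 genes in the set, 8 probe sets for Adgrl2 and 1 for each of 7 others. The genes were chosen with the results of this same comparison known and selected on the log2 changes of Adgrl2 in it, so their levels and changes are given as a description, with no test.

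The cells were of the line 230-238, and both groups were infected with a plasmid. In 3 samples (GFP alone) it encoded green fluorescent protein, and in 3 samples (GFP and FOG1) it encoded that protein and FOG1, a partner protein of GATA transcription factors encoded by Zfpm1. RNA was isolated after 3 days of culture, a sort for green fluorescence and 4 more days of culture, and each sample was run on 1 array. The labels call the samples biological replicates without saying whether infections were separate, so every spread and p-value covers these samples only. All results concern 1 cell line with an introduced FOG1, and an RNA signal in the sorted cells cannot tell fewer cells with a transcript from less transcript per cell.

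Adhesion G protein-coupled receptors join a long extracellular part, which binds ligands on other cells or in the matrix, to the membrane-spanning part through which G proteins are activated. Most are cut in a juxtamembrane domain, and a short stretch just behind the cut can act as a tethered agonist. The latrophilins (Adgrl1, Adgrl2, Adgrl3) bind teneurins and FLRT proteins and are best known from synapses. Adgre5 (CD97), which binds CD55, Adgrg1 (GPR56), which binds collagen III, and Adgrg3 (GPR97) are known from blood cells. Adgrl4 is known from endothelium, and Adgrg6 (GPR126) from myelinating Schwann cells.

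FOG1 acts through GATA factors, so the promoter windows of the genes were searched for GATA hexamers, and those of 2 latrophilin genes, Adgrl2, which was lower with FOG1, and Adgrl1, which was not, are shown. The sequences are RefSeq's, build GRCm38.p6, and run from 250 bases before to 50 after a listed start, at chr3:148954586-148954885 on the minus strand for Adgrl2 and chr8:83899848-83900147 on the plus strand for Adgrl1. The hexamer AGATAA, the hexamer AGATAG, the hexamer TGATAA and the hexamer TGATAG were searched on both strands, and a match is in capitals.
Adgrl2: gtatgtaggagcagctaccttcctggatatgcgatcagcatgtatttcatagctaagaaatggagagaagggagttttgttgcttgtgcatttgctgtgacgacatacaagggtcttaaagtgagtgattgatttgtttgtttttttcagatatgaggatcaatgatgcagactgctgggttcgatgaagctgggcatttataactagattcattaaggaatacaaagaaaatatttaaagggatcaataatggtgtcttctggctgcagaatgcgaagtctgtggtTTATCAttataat
Adgrl1: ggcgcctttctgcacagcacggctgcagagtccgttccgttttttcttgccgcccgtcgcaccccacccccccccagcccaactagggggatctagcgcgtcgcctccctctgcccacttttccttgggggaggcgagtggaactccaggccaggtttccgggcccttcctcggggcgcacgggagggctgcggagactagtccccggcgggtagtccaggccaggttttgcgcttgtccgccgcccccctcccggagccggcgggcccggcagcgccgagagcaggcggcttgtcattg
The Adgrl2 window held 1 match, TGATAA on the strand opposite to the printed one, at bases 38 to 43 after the start, and the Adgrl1 window held none. Windows were listed for 7 of these 8 genes, 10 in all, and 3 of them held a match, the one of Adgrl2 and 2 of Adgrl3. Adgrl3, the third latrophilin, was dim and had a log2 change of 0.006 (SE 0.051). Matches were not tested against changes. Of all 32851 windows of the table, 29.8% held at least 1 match. The Adgrl2 window was 38.0% G and C and the Adgrl1 window 70.0%, against a median of 52.7% over the table. A match is a run of letters and was not tested as a binding site, and RefSeq's span of Adgrl2 reaches further upstream than the listed start.

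Values are log2 signals as deposited, and log2 changes are GFP and FOG1 minus GFP alone, fitted with limma on all probe sets. Zfpm1, the gene of FOG1, lay at 9.41, 9.49 and 9.43 with GFP alone and at 10.21, 10.16 and 10.17 with FOG1, a rise of 0.74 (SE 0.045; limma with Benjamini-Hochberg, adjusted p = 0.0038), so all 6 arrays went with their labels. Over all probe sets, 78 of 34760 passed an adjusted p of 0.05, which is 0.224%, and 0.121% passed and were lower with FOG1. Of these 34760, 11799 had no symbol listed, while the receptor and list genes were read at 1-symbol probe sets. Shares of all probe sets are thus over a broader kind of probe set. In the fit on the 21640 1-symbol probe sets alone, 102 passed. Groups did not overlap in 19.6% of all probe sets. All 9 measured B-cell markers, among them Cd79a, Pax5 and Ebf1, reached the median of all values on these arrays. Their summed linear signal was 46644 to 47876 with GFP alone and 43373 to 45375 with FOG1, with Cd79a, a chain of the B-cell receptor, at -0.41 (limma adjusted p = 0.088) and 2 of 9 markers at an unadjusted p under 0.05. Cd79b was at -0.16, the rest ran from -0.02 (Blnk) to 0.07 (Vpreb3), and the median change of the 9 was -0.01. The part of the lower marker sum in the Adgrl2 values was not tested. The median level was reached by 0 of 7 neutrophil, 1 of 7 macrophage, 2 of 7 T and NK cell, 2 of 7 endothelial and 4 of 6 fibroblast markers. On the first principal component FOG1 replicate 1, at 1.16, lay between the GFP-alone arrays (-16.1 to -11.4) and the other FOG1 arrays (16.98 and 24.28).

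Adgrl2 was lower in all 3 FOG1 samples at its 3 probe sets that reached the median of all values, by 1.21-fold to 1.44-fold, while its 5 dimmer probe sets gave no common picture. At probe set 10502780 the values were 8.48, 8.49 and 8.57 with GFP alone and 7.95, 8.07 and 7.94 with FOG1. Every FOG1 array lay below every GFP-alone array, and the gap between the groups was wider than the range within either. The means were 8.51 ± 0.05 and 7.99 ± 0.07 (SD, n = 3 arrays per group), a log2 change of -0.53 (SE 0.057), or 1.44-fold lower with FOG1.

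The second bright probe set, 10502776, behaved in the same way. It read 8.46, 8.43 and 8.43 with GFP alone and 7.96, 7.87 and 8.03 with FOG1, again with no overlap. Its means were 8.44 ± 0.02 and 7.95 ± 0.08, a log2 change of -0.48 (SE 0.053), or 1.40-fold lower. These 2 were the ones of the 15 adhesion receptor probe sets that passed the threshold, and since this comparison chose the genes, nothing is read from that count beside the 0.224% of all probe sets. Neither passed with the replicate block, after median centring or in any of the 6 fits that left out 1 array (limma). Of all 34760 log2 changes, 0.535% were at or below that of 10502780 and 0.696% at or below that of 10502776. Since Adgrl2 was selected on these changes, nothing is read from these 2 shares either.

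**Figure D1:**
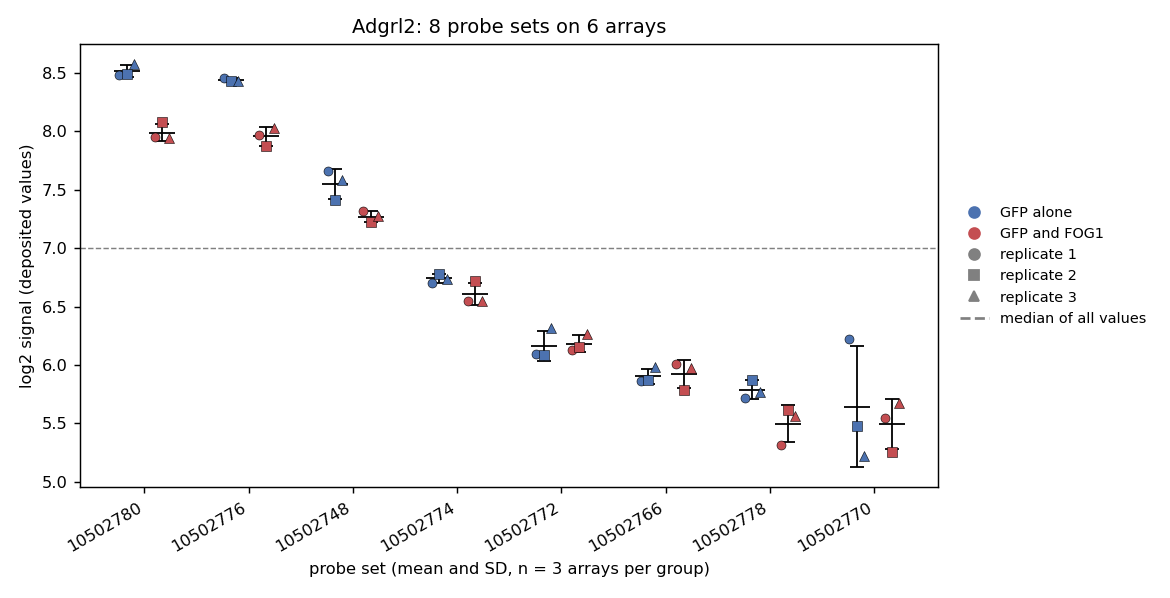
Log2 signal of each Adgrl2 probe set on each array, blue for GFP alone and red for GFP and FOG1, with the shape giving the replicate number. Black marks are group means with SD (n = 3 arrays) and the dashed line is the median of all values. At 10502780, 10502776 and 10502748, above the line, the FOG1 arrays lie below the GFP-alone arrays, and below the line this is so at 10502778 alone.

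The third probe set above the median, 10502748, differed less. It gave 7.66, 7.41 and 7.58 with GFP alone against 7.32, 7.22 and 7.27 with FOG1, a log2 change of -0.28 (SE 0.074), and it did not pass. The groups did not overlap, but GFP replicate 2 came close to FOG1 replicate 1. Averaged over the 3 bright probe sets, Adgrl2 read 8.20, 8.11 and 8.20 with GFP alone and 7.74, 7.72 and 7.75 with FOG1, a difference of -0.43.

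The 5 Adgrl2 probe sets below the median had log2 changes from -0.29 to 0.02, and none passed. At 10502778 the values were 5.72, 5.88 and 5.77 with GFP alone and 5.32, 5.61 and 5.56 with FOG1, a change of -0.29 (SE 0.089) with no overlap. Probe set 10502774 gave 6.70, 6.78 and 6.74 against 6.55, 6.72 and 6.55, a change of -0.13 (SE 0.061), with FOG1 replicate 2 inside the GFP-alone range. The groups also overlapped at the remaining 3 dim probe sets.

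Among those 3, 10502766 and 10502772 had changes of 0.02 each (SE 0.074 and 0.078), with intervals of -0.16 to 0.20 and -0.17 to 0.21 (95%, limma). Probe set 10502770 was the least precise, since GFP replicate 1 gave 6.22 there against 5.48 and 5.22 for the other GFP-alone arrays, and its change of -0.15 had an interval of -0.76 to 0.47. The mean of the 5 dim probe sets was 6.05 ± 0.06 with GFP alone and 5.94 ± 0.06 with FOG1. Dim probe sets had no detection call here, so background may make up part of their reading and compress their log2 changes. Which part of the transcript each probe set covers is not given in the sources used here.

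Across the 6 arrays, the correlation with 10502780 was 0.93 for 10502776, 0.84 for 10502748, 0.85 for 10502778 and 0.84 for 10502774. It was 0.08 for 10502770, -0.05 for 10502772 and -0.20 for 10502766. These are descriptions over n = 6 arrays of 2 groups, and all the probe sets share the same RNA samples.

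The other latrophilin genes, Adgrl1 and Adgrl3, had log2 changes near 0. Adgrl1, which like Adgrl2 binds teneurins, read 9.32, 9.29 and 9.23 with GFP alone and 9.31, 9.26 and 9.32 with FOG1. The groups overlapped fully, and the change of 0.02 (SE 0.047) had a 95% interval of -0.10 to 0.13. That interval leaves out changes as large as those at Adgrl2 probe sets 10502780 and 10502776, while the difference between the 2 genes was not tested. Adgrl3, the third latrophilin, was dim, with 3 values from 4.95 to 5.05 against 3 from 4.95 to 5.06, so a change in its RNA could be hidden.

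Adgrl4, the endothelial receptor, was also dim but was slightly higher with FOG1. It gave 5.55, 5.49 and 5.38 with GFP alone and 5.59, 5.58 and 5.59 with FOG1, a change of 0.11 (SE 0.056) with an interval of -0.02 to 0.25. The groups did not overlap, with FOG1 higher, which was so for 9.13% of all probe sets, and the change did not pass. Among the 7 endothelial markers, Cdh5, Kdr, Tek, Emcn and Esam stayed below the median level and Pecam1 and Egfl7 reached it. The summed linear signal of the 7 ran from 1247 to 1373 with GFP alone and from 1305 to 1400 with FOG1. Pecam1, the brightest of the 7, weighs most in that sum. Of the 7 genes, 2 had an unadjusted p under 0.05 (limma) and 0 passed. Their median change was -0.04, with Cdh5 at 0.19 and Emcn at -0.16. The part of the endothelial transcripts in the Adgrl4 values was not tested.

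**Figure D2:**
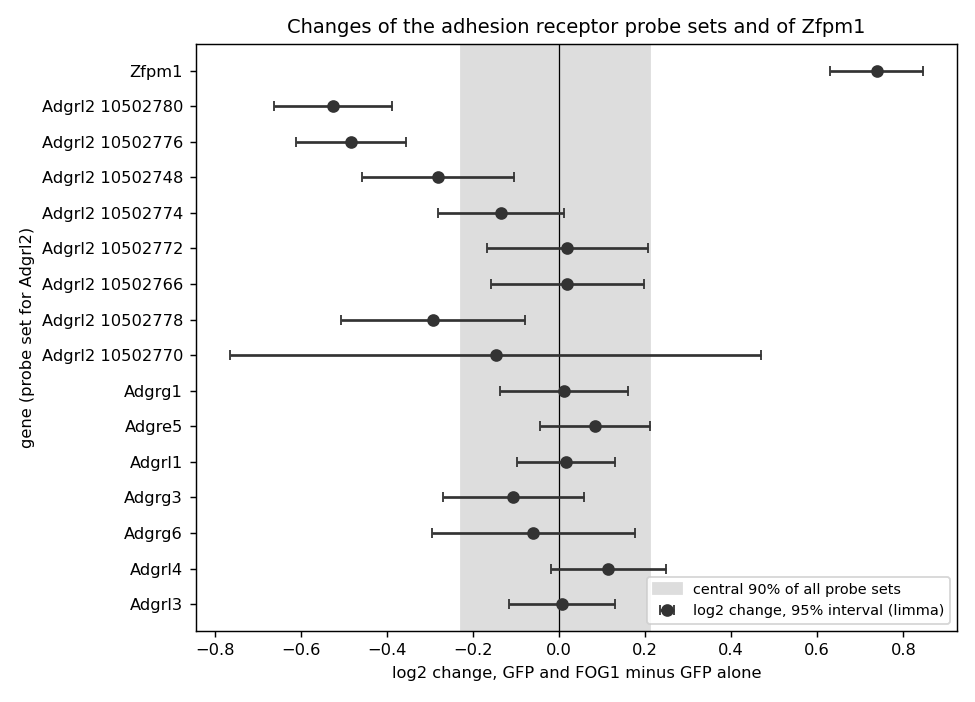
Log2 change (GFP and FOG1 minus GFP alone) of the 15 adhesion receptor probe sets and of Zfpm1, with 95% intervals from limma (3 arrays per group). The grey band holds the central 90% of the changes of all probe sets, -0.23 to 0.21. Adgrl2 probe sets 10502780, 10502776, 10502748 and 10502778 lie to the left of the band, Zfpm1 at 0.74 lies to its right, and the points of the 7 other receptor genes lie inside it.

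Adgre5, Adgrg1 and Adgrg3, known from blood cells, were well above the median level and differed little between the groups. Adgre5, which encodes CD97, read 10.95, 11.09 and 10.99 with GFP alone and 11.09, 11.13 and 11.07 with FOG1. Its change was 0.08 (SE 0.053) with an interval of -0.04 to 0.21, and the lowest FOG1 array lay below the highest GFP-alone array. Adgrg1, which encodes GPR56 and is known from cytotoxic lymphocytes and from the developing brain, gave 11.40, 11.39 and 11.29 against 11.36, 11.29 and 11.46. Its change was 0.01 (SE 0.062; interval -0.14 to 0.16), and the groups overlapped.

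Adgrg3, the protein-coding gene that RefSeq lists next to Adgrg1, encodes GPR97, known from granulocytes. It read 8.70, 8.83 and 8.62 with GFP alone and 8.64, 8.53 and 8.65 with FOG1, a change of -0.11 (SE 0.069; interval -0.27 to 0.06) with overlapping groups. The 7 neutrophil markers all stayed below the median level on these arrays, and their summed signal was 480 to 496 with GFP alone and 468 to 498 with FOG1. Over the 7 receptor genes other than Adgrl2, 5 changes were positive and 2 negative, from -0.11 to 0.11, with a median of 0.01 beside -0.01 over all probe sets, and none passed.

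**Figure D3:**
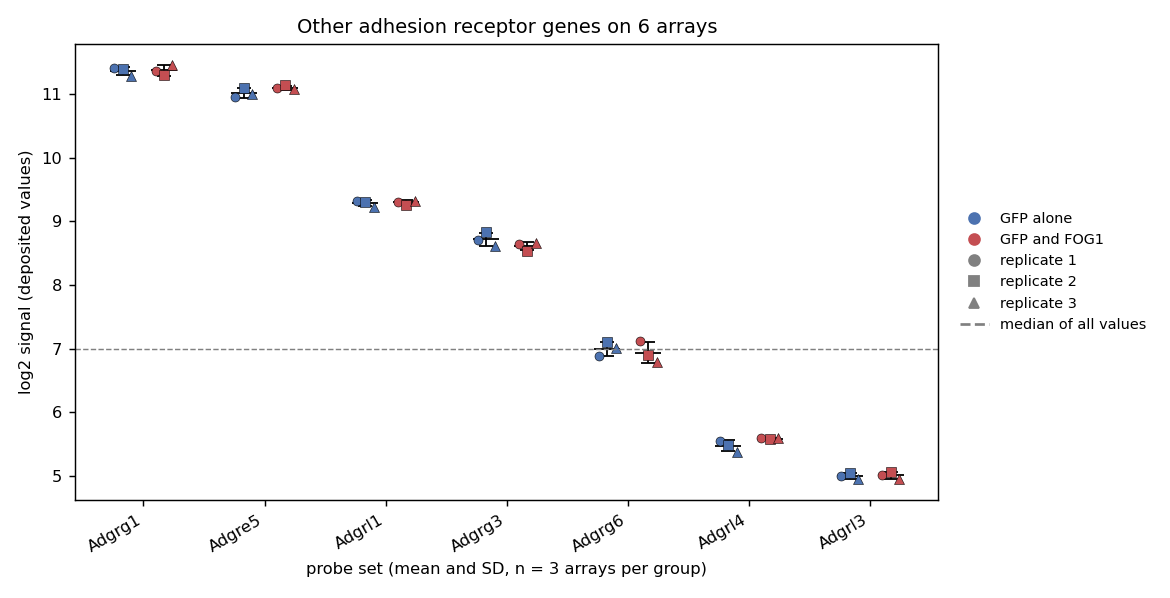
Log2 signal of the 7 receptor genes other than Adgrl2 on each array, coloured and shaped by group and replicate, with group means and SD (n = 3) in black and the median of all values dashed. The groups overlap in 6 genes, and at Adgrl4 the FOG1 arrays lie slightly above the GFP-alone arrays.

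Adgrg6 differed more within the FOG1 group than between the groups. It read 6.887, 7.102 and 7.002 with GFP alone and 7.12, 6.90 and 6.80 with FOG1, a change of -0.06 (SE 0.098). FOG1 replicate 1 was the highest of the 6 arrays and FOG1 replicate 3 the lowest. Without FOG1 replicate 1 the change was -0.15 (SE 0.080).

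The summed signal of 6 fibroblast markers ranked the 6 arrays in the same order as Adgrg6 did. On the linear scale the sum was 1831, 2093 and 2054 with GFP alone and 2433, 1957 and 1304 with FOG1, of which the collagen genes Col1a1 and Col1a2 were among the 4 markers that reached the median level. The median change of the list was -0.09 and none of its genes passed (0 also at an unadjusted p under 0.05, limma). The part of these transcripts in the Adgrg6 values was not tested. Adgrl2 probe set 10502780 gave 7.95, 8.07 and 7.94 on the FOG1 arrays, which is another order. Without FOG1 replicate 1 its change was -0.51, and that of 10502776 was -0.49. The part of the fibroblast transcripts in the Adgrl2 values was not tested.

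**Figure D4:**
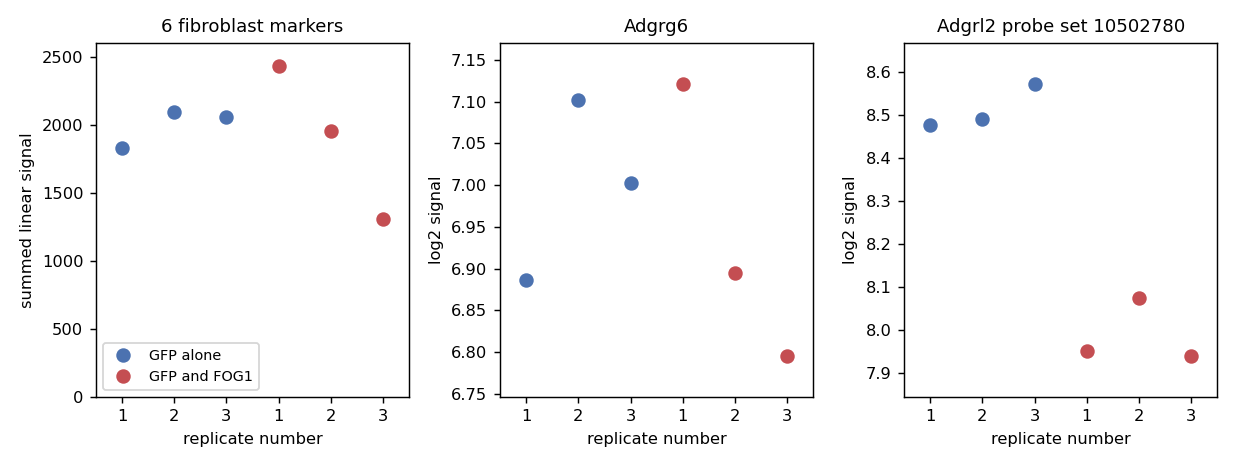
Summed linear signal of 6 fibroblast markers (left, axis from 0), and log2 signal of Adgrg6 (middle) and of Adgrl2 probe set 10502780 (right), on each array by replicate number, blue for GFP alone and red for GFP and FOG1. The marker sum and Adgrg6 are both highest on FOG1 replicate 1 and lowest on FOG1 replicate 3. At Adgrl2, chosen on this comparison, every FOG1 array lies below every GFP-alone array.

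Of the rest of the adhesion receptor family, 20 of 21 listed genes were measured, and none rose or fell past the threshold (limma with Benjamini-Hochberg; 0 also at an unadjusted p under 0.05, beside 12.5% of all probe sets). Their changes ran from -0.19 to 0.11 with a median of -0.02, and 12 were negative and 8 positive (10 each after median centring). Only Adgra1, Adgra3, Adgrb2, Celsr1 and Celsr2 reached the median level, so falls among the other 15 could be hidden. The genes with the smallest p were Adgrg4 (-0.09), Adgrd1 (0.07), Adgra3 (-0.19) and Adgrf4 (0.11), with limma adjusted p from 0.46 to 0.60. Celsr1, a receptor of planar cell polarity, was at 0.04, and Adgre1, which is known as a macrophage marker, was dim at 5.60 and 5.59.

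Adgra3 resembled Adgrg6 within the FOG1 group. It read 7.25, 7.41 and 7.38 with GFP alone and 7.40, 7.15 and 6.92 with FOG1. This fall from FOG1 replicate 1 to FOG1 replicate 3 was not particular to these receptors. It was also seen at Adgrg2 and, among the ligand and signalling genes below, at Itga5, Cd9, Prnp and Gnao1. Values rose in that order at Adgrd1 and Gna13. These genes were named after their values were seen, and the part of the fibroblast transcripts in them was not tested. Without FOG1 replicate 1, an unadjusted p under 0.05 was reached by 4 family genes, Adgrg2 (-0.28), Adgra3 (-0.31), Adgra1 (-0.16) and Adgra2 (-0.16), beside 15.5% of all probe sets, and none passed after adjustment (limma adjusted p = 0.23 to 0.31). These 4 were named after their values were seen.

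Known ligands and membrane partners of the receptors had a median change of -0.05 over 23 measured genes, beside -0.01 over all probe sets. The change was negative in 17 and positive in 6 (14 and 9 after median centring), beside 53.8% negative over all probe sets (44.0%). None passed after adjustment, and 3 had an unadjusted p under 0.05 (limma), beside 12.5% of all probe sets. Cd55, the gene of the complement regulator that CD97 binds, read 8.45, 8.33 and 8.32 with GFP alone and 7.87, 8.01 and 8.06 with FOG1. The groups did not overlap, and the change was -0.39 (SE 0.069; limma adjusted p = 0.14). Its close relative Cd55b was dim at -0.09, and probes of one gene may also bind RNA of the other.

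Thy1, another ligand of CD97, gave 8.82, 8.59 and 8.56 against 8.38, 8.29 and 8.43, a change of -0.29 (SE 0.083; limma adjusted p = 0.28). Nrxn2, a neurexin, a family with which latrophilin 1 can pair, was at -0.20 (SE 0.045; limma adjusted p = 0.21). Tenm4, a teneurin and so of the family of latrophilin ligands, was at -0.11 (SE 0.057; limma adjusted p = 0.48), with overlapping groups. Among these 23 genes the groups did not overlap in 4, beside 19.6% of all probe sets in either direction. All 4 were lower with FOG1, as were 10.5% of all probe sets.

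Genes of G protein subunits, exchange factors, kinases and arrestins, through which such receptors act, showed no call among 22 measured genes, and 0 had an unadjusted p under 0.05 (limma), beside 12.5% of all probe sets. That 0 became 3 without FOG1 replicate 1 and with a variance trend, 2 with array weights and 1 with median centring or 1-symbol probe sets alone. The median change was 0.01, with 13 positive and 9 negative (16 and 6 after median centring). Smallest in p were Gng2 (-0.15), Rock1 (0.12), Arhgef12 (-0.23) and Gnai3 (0.09), with limma adjusted p from 0.41 to 0.54. Gna13, which encodes a G protein alpha subunit, was at 0.00 with an interval of -0.11 to 0.11.

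**Figure D5:**
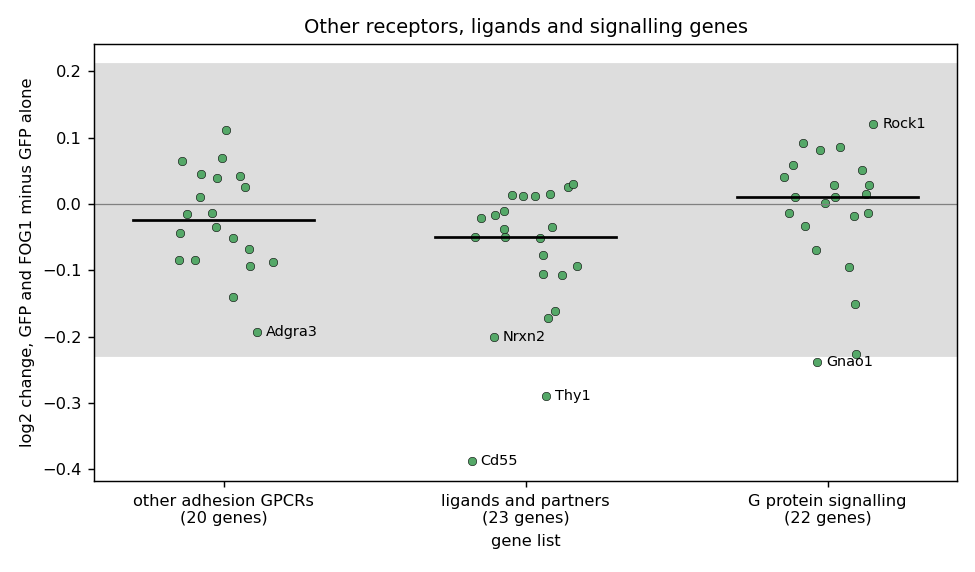
Log2 change (GFP and FOG1 minus GFP alone) of each measured gene of 3 lists, 1 point a gene, with the list median as a black line and the central 90% of all probe sets, -0.23 to 0.21, in grey. Cd55 and Thy1 among the ligands and Gnao1 (-0.24) among the signalling genes lie below the band, and the points of the other adhesion receptors lie inside it. At Gnao1 the groups overlap (SE 0.23; limma adjusted p = 0.68), and the FOG1 arrays fall from 7.84 in replicate 1 to 6.91 in replicate 3.

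The genes whose values over the 6 arrays were most like those of Adgrl2 were sought among 11657 named probe sets that reached the median level, with probe set 10502780 as the reference. The highest correlations were those of Ankrd33b (0.996), Aim2 (0.990), Diras2 (0.989), Tmem242 (0.988) and Pcp4 (0.987). Aim2 encodes a sensor of cytosolic DNA. It was at 9.42 ± 0.08 with GFP alone and 8.99 ± 0.06 with FOG1, and Pcp4, which encodes a calmodulin-binding peptide, was at 10.11 ± 0.06 and 9.61 ± 0.07. The lowest correlations were those of Epb41l5 (-0.994), Cbx5 (-0.992), Ddx27 (-0.992), Ubn1 (-0.988) and Nrgn (-0.986). Correlations over 6 arrays of 2 groups mostly follow the group difference, and in all 74 of the 11657 probe sets lay above 0.95 and 108 below -0.95.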

How the data were processed

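RNA of the 6 samples was amplified and hybridised to Affymetrix mouse gene arrays, per the labels' protocols. The authors deposited 1 table of log2 signals, made with the affy package per the submitters' processing notes. How background, normalization and probe summary were handled is not given there or in the labels. The log2 scale of the deposited values was read from their range, 3.12 to 14.07, with array medians of 6.98 to 7.04. Precision is limited by the number of arrays.

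Gene symbols were those of the platform's annotation (21640 with 1 symbol, 1321 with several and 11799 with none listed), and Entrez identifiers checked against RefSeq changed 0 symbols. Groups came from the sample titles. All probe sets were fitted with limma 3.58.1 in R 4.3.3 (lmFit, eBayes, no block), tested on simulated data first, and adjusted by Benjamini-Hochberg. Each list gene was read at its 1-symbol probe set with the highest mean. The members and lists were chosen with earlier results of these data known, and 1 gene of the set is not reported here. Named genes were all members, Zfpm1, of each list any called gene and the 4 with the smallest p, and for likeness the 5 highest and 5 lowest Pearson correlations with Adgrl2. Genes named for a group count, a marker list or a known role (such as Celsr1, Adgre1, Cd55b and Gna13) were added after their values were seen. Alternatives were quantile normalization, median centring, no dim probe sets, 1-symbol probe sets alone, the replicate block, a variance trend, array weights, each array left out, averaging the probe sets of a gene, and stricter thresholds. Same-numbered samples did not deviate together (correlations -0.07, 0.01 and -0.04), so they were not paired. Plots were made in Python 3.11.15 with matplotlib 3.10.9.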

Additional observations from a re-analysis of the deposited data

How the results depend on the processing

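Adgrl2 kept its direction at its 3 bright probe sets in all 13 alternative fits, with log2 changes of -0.57 to -0.50 at 10502780, -0.52 to -0.44 at 10502776 and -0.35 to -0.23 at 10502748. Most of the 13 could not have reversed it. The replicate block, a variance trend and fits on fewer probe sets leave each change as it is. Where groups do not overlap, leaving out 1 array cannot change the sign. The number of Adgrl2 probe sets past the threshold, 2, was 2 in 5 of the 13 fits and 0 in 8, namely median centring, the replicate block and each of the 6 fits without 1 array, which hold fewer samples. Dim Adgrl2 probe sets 10502766, 10502770 and 10502772 changed sign in some fits, as did Adgrl1, Adgrl3, Adgrg1 and Adgrg6, and none of these had passed. Leaving out 1 of 3 arrays cannot move a change by more than the spread between replicates (pooled SD). No change of an adhesion receptor probe set moved by more than that, and nothing is read from it. The 3 lists gave 0 calls in every fit. The count of 78 called probe sets was 9 with the replicate block, 17 to 38 without 1 array, 20 at an adjusted p under 0.01 and 23 with a 2-fold minimum. Zfpm1 kept its rise of 0.74 with the replicate block, at a limma adjusted p of 0.0975. The cause of the other moves was not tested. Dim probe sets limit what can be seen for Adgrl3, Adgrl4 and most of the family.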
